A study of Mus musculus with 8 samples.

Results

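The mitochondrial permeability transition pore is a large conductance of the inner mitochondrial membrane. The genes described here encode 10 proteins that have been proposed as its parts or are known to act on it: Ppif, Vdac1, Vdac2, Vdac3, Slc25a3, Slc25a4, Slc25a5, Tspo, Trap1 and C1qbp. They were chosen by name for this known role, with earlier results of these data in view. All 10 of 10 were found in a table of 55401 genes, and all 10 passed the filter on low counts that left 27573 genes for testing.

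The RNA came from haematopoietic stem cells (HSCs), which sustain all blood lineages and their own pool. They were isolated by cell sorting from the bone marrow of C57BL/6 mice 8 weeks old at about 3000 cells per sample. The Nynrin CKO group of 4 libraries came from Nynrin fl/fl mice that also carried Tie2-Cre, a Cre recombinase under a promoter active in endothelium and blood cells. The control group of 4 libraries came from Nynrin fl/fl mice without Cre and is labelled wild type, so both groups carried the floxed allele and the Nynrin CKO group alone carried Cre. An effect of Cre itself, or of deletion in endothelium, cannot be told apart from that of deletion in HSCs. The series title links Nynrin to opening of this pore, and the comparison addressed here is how transcripts of the pore genes differed between the groups. Whether each library is a separate mouse is not stated, so the spread behind the p-values is that of these libraries and may be technical in part. Libraries 1 and 2 of the Nynrin CKO group were close to each other, with mitochondrially encoded genes taking 6.78% and 6.55% of counts, as were libraries 3 and 4 with 9.90% and 9.86%, while the controls ranged from 5.98% to 7.44%. The labels do not say whether such libraries share a source, so the comparison was also made with the Nynrin CKO libraries summed in these pairs.

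Opening of the pore lets small solutes cross the inner membrane, which collapses the membrane potential, swells the matrix and can end in cell death. Matrix calcium and oxidative stress promote opening, and cyclophilin D, the product of Ppif, lowers the calcium needed. Which proteins form the channel is disputed: the adenine nucleotide carriers and the ATP synthase are the leading candidates for the inner membrane, whereas the outer membrane channels (VDAC) and the translocator protein TSPO, once held to be parts, were found dispensable in gene deletion experiments in mice. In HSCs, pore opening through cyclophilin D has been linked to the loss of stem cells when marrow is handled in ambient oxygen.

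Libraries differed within the groups, and not evenly between them. Control libraries held 36942835 to 50260720 counts and Nynrin CKO libraries 43998525 to 56437299. Control 4 and Nynrin CKO 3 and 4 had 177 to 216 CPM (counts scaled to library size with TMM factors) on 2001 olfactory and vomeronasal receptor genes, and the other 5 libraries had 873 to 1449 CPM. The former are called receptor-poor and the latter receptor-rich. Xist, the RNA of the inactive X chromosome, was at 4176 and 4280 CPM in controls 3 and 4 and at 5.83 to 11.4 CPM in the other 6 libraries. High Xist was thus found in controls alone and was not balanced between the groups. Nynrin fell from 37.3 ± 8.56 to 10.4 ± 2.49 CPM (SD, n = 4 each), with a log2 fold change of -1.85 ± 0.22 (SE, edgeR adjusted p = 0.0345). Of 12 HSC markers edgeR called 0, but 4 were lower and 1 higher at an unadjusted p under 0.05, DESeq2 called 2 lower and limma-voom 1 lower. Mecom, a transcription factor needed by HSCs, was at 99.6 ± 6.68 CPM in controls and at 50.4 ± 20.6 CPM in Nynrin CKO (log2 fold change -0.98, edgeR adjusted p = 0.0746), and for Mecom and Fgd5 every Nynrin CKO library was below every control. All 12 granulocyte markers had a positive log2 fold change. Of these edgeR called Ctsg, Chil3 and Ms4a3 higher, 9 were higher at an unadjusted p under 0.05, DESeq2 called 8 higher and limma-voom 1. The list summed to 206 to 362 CPM in the control group, 486 and 536 CPM in libraries 1 and 2 of the Nynrin CKO group and 4163 and 4194 CPM in Nynrin CKO 3 and 4. Mpo had the highest mean of the list in Nynrin CKO, at 1494 ± 1538 CPM against 79.4 ± 16.4 CPM in controls (SD, n = 4 each, edgeR adjusted p = 0.0520). Of 10 monocyte and macrophage markers edgeR called 2 higher, 8 were higher at an unadjusted p under 0.05, DESeq2 called 5 higher and limma-voom 2. Their sum was 318 to 386 CPM in the control group against 454 to 777 CPM in the other. Erythroid markers summed to 1123 to 1436 and 2115 to 2467 CPM (edgeR called 3 of 9 higher, 4 were higher at an unadjusted p under 0.05, DESeq2 called 3 higher and limma-voom 3). Most of both erythroid sums was Car2, at 1189 ± 151 and 2014 ± 118 CPM, and Hbb-bt had a lower mean in Nynrin CKO (SD, n = 4 each). Summed B cell markers were at 43.9 to 56.5 and 107 to 197 CPM (edgeR called 0 of 9, 3 were higher at an unadjusted p under 0.05, DESeq2 called 3 higher and limma-voom 1). T and NK cell markers summed to 59.0 to 87.6 and 147 to 295 CPM. Of these 10 edgeR called Nkg7 alone, 2 were higher at an unadjusted p under 0.05, DESeq2 called 1 higher and limma-voom 1. Nkg7 made up most of both sums, at 60.8 ± 16.5 and 201 ± 71.6 CPM (SD, n = 4 each). Gzmb was above every control in every Nynrin CKO library, at low means of 0.296 and 1.57 CPM. Cd3d, Cd8a and Klrb1c had lower means in Nynrin CKO. Mast cell and basophil markers summed to 25.0 to 64.3 and 76.9 to 158 CPM (edgeR called 2 of 8 higher, 5 were higher at an unadjusted p under 0.05, DESeq2 called 5 higher and limma-voom 1). Megakaryocyte markers summed to 137 to 403 and 154 to 372 CPM (edgeR called 0 of 6, 1 was lower at an unadjusted p under 0.05, DESeq2 called 1 lower and limma-voom 0). Endothelial markers summed to 151 to 175 and 268 to 410 CPM. Of these 8 edgeR called 1 higher, Tek, which encodes Tie2, at 35.5 ± 7.43 and 153 ± 7.91 CPM (SD, n = 4 each). Stab2 and Plvap each had a log2 fold change of 1.74 but did not pass (edgeR adjusted p = 0.328 and 0.230). Those of Cdh5, Pecam1, Kdr, Emcn and Flt1 were 0.01 to 0.24. No marker was at 0 in all 4 controls, and the part of other cell types in the results below was not tested. In RNA from sorted cells, fewer cells of a type and less RNA per cell cannot be told apart.

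Every one of the 10 pore genes had a higher mean in Nynrin CKO than in controls on the TMM scale, and 2 of them, Ppif and Tspo, passed the test across all genes. Over all 27573 tested genes the share called higher was 2.22% (edgeR quasi-likelihood test, adjusted p under 0.05) and the share called lower was 0.588%, with 0 of the 10 called lower. This balance rests on the scale and the libraries: 59 genes were called higher and 318 lower with total counts, 13 and 22 with RLE factors and 225 and 251 with upper-quartile factors. Against 611 genes called higher in all 8 libraries, 1129 were called without control 4 and 1 to 6 without any other library. With the Nynrin CKO libraries summed in pairs, edgeR called 0 genes, and Ppif and Tspo each had an adjusted p of 0.443 (unadjusted p of 0.00266 and 0.00518). With all 8 libraries kept separate, the unadjusted p was under 0.05 with a higher mean for 8 of the 10, against 13.2% of all tested genes. In 5 of 10, Ppif, Vdac2, Vdac3, Slc25a5 and Tspo, all 4 Nynrin CKO libraries lay above all 4 controls, against 9.52% of all tested genes. The reverse held for 0 of the 10 and for 4.83% of all tested genes. The median log2 fold change of the 10 was 0.44, with a range of 0.20 to 0.91, and that of all tested genes was -0.09. A positive log2 fold change was found for 44.5% of all tested genes. The scale matters for this direction: with library totals in place of TMM factors the median of the 10 was 0.16, that of all genes was -0.34, and Vdac1 and Slc25a3 turned negative, at -0.05 and -0.09.

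**Figure D1:**
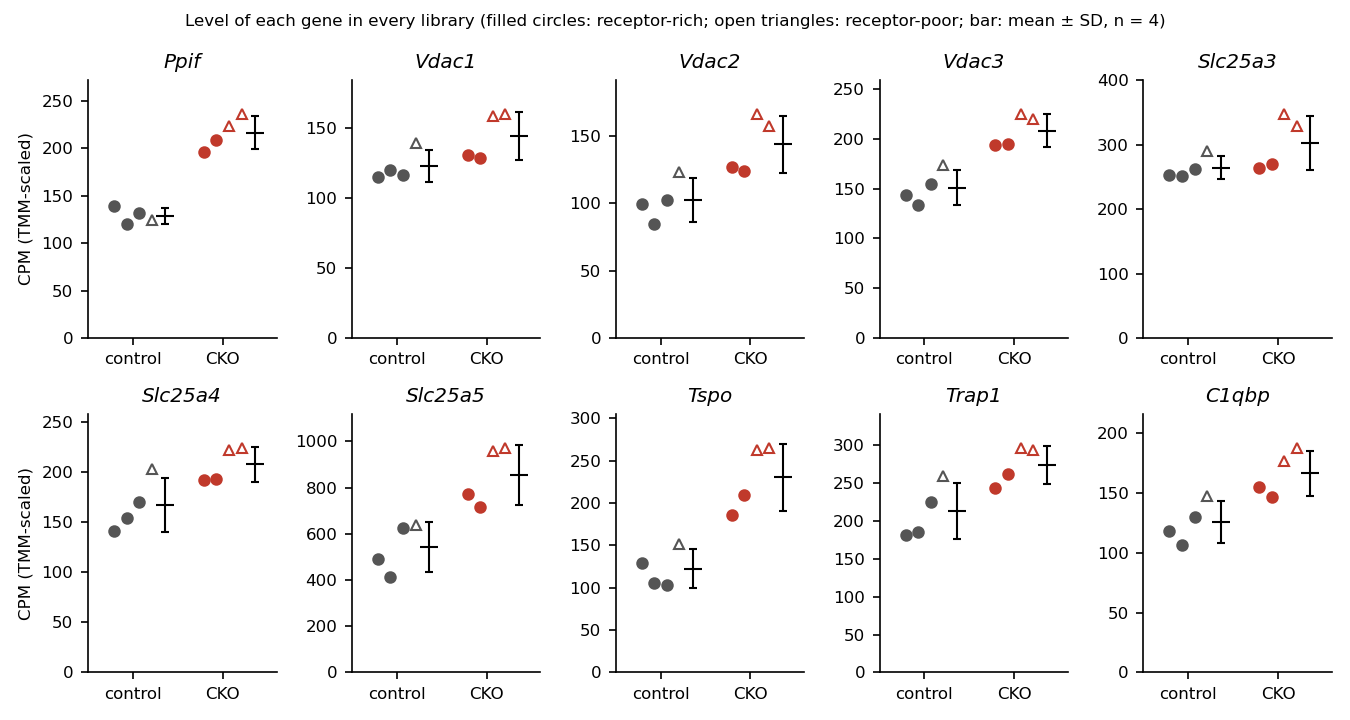
Level of each of the 10 genes in CPM (linear axis from 0) in every library of the control group and the Nynrin CKO group, with the mean ± SD beside each group. Circles are receptor-rich libraries and triangles receptor-poor ones. The groups do not overlap for Ppif, Vdac2, Vdac3, Slc25a5 and Tspo, and the triangle in the control group is the highest control in every panel but that of Ppif.

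Ppif encodes cyclophilin D, the matrix peptidyl-prolyl isomerase that sensitises the pore to calcium and is the target of cyclosporin A. In mm10 it spans 25694154 to 25700468 of chromosome 14, plus strand (ENSMUSG00000021868). It measured 139, 119.8, 132 and 125 CPM in controls 1 to 4 and 197, 209, 223 and 237 CPM in Nynrin CKO 1 to 4. The lowest Nynrin CKO library lay well above the highest control, and the controls lay within a narrow band. The count behind each value was 5033 to 6524 in controls and 8873 to 10141 in Nynrin CKO. The mean rose 1.68-fold, from 129 ± 8.41 to 217 ± 17.4 CPM (SD, n = 4 each). The log2 fold change came to 0.75 ± 0.10 (SE), with a 95% interval of 0.52 to 0.98 (edgeR adjusted p = 0.0345). The exact permutation p was 0.0286, the smallest that 4 against 4 libraries can give. Ppif differed from most of the other genes described here in that control 4 was not its highest control: the log2 fold change was 0.64 within the receptor-rich set and 0.88 within the receptor-poor set. The adjusted p of edgeR passed without control 4 (0.0244) but was 0.0545 to 0.136 when any of controls 1 to 3 or any Nynrin CKO library was left out, with log2 fold changes of 0.69 to 0.80. Over 25 alternatives the log2 fold change of Ppif was positive in 25, at 0.47 to 0.88, and edgeR or the tool used passed it in 10. These 10 include the contrast within the receptor-poor set, in which control 4 is the only control. An antisense record over the gene, Ppifos, held 6 counts in all libraries together.

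The 300 bases around the RefSeq start of Ppif (GRCm38.p6, chr14:25693920-25694219, plus strand, from 250 before to 50 after the start) are shown because Ppif was the pore gene with the smallest p. Capitals mark matches to CCGGAAG, an ETS family motif, here on the opposite strand, and to GGGCGG, an SP1 motif.
Ppif promoter: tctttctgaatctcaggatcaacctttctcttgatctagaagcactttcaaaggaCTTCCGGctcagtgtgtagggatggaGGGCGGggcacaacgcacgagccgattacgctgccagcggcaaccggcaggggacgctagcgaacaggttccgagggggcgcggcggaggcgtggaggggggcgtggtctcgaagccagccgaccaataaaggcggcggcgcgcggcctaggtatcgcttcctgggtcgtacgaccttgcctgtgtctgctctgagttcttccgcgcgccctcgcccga

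The voltage-dependent anion channels pass metabolites and nucleotides across the outer membrane. VDAC1 is the form best known as a docking site of hexokinase, VDAC2 holds the death effector BAK at the membrane, and VDAC3 is the least understood form. Vdac2, on chromosome 14 from 21825238 to 21845879, was at 99.2, 84.3, 103 and 123 CPM in controls and at 127, 124, 166 and 157 CPM in Nynrin CKO. All Nynrin CKO libraries were above all controls, although control 4 nearly reached Nynrin CKO 2. The log2 fold change came to 0.49 ± 0.15 (SE, edgeR adjusted p = 0.104, exact permutation p = 0.0286). Vdac3, on chromosome 8 from 22577075 to 22593813, was at 143, 133, 154 and 173 CPM in controls and at 193, 195, 225 and 219.6 CPM in Nynrin CKO. These groups were also apart, with a clear gap between control 4 and Nynrin CKO 1. The log2 fold change came to 0.46 ± 0.12 (SE, edgeR adjusted p = 0.0633, exact permutation p = 0.0286), and the adjusted p was 0.0366 without control 4. Vdac1, on chromosome 11 from 52360860 to 52389397, was at 115, 120.1, 117 and 139.5 CPM in controls and at 130.4, 129, 158 and 160.2 CPM in Nynrin CKO. Here the groups overlapped, because control 4 lay above Nynrin CKO 1 and 2. Its log2 fold change came to 0.23 ± 0.12 (SE), with a 95% interval of -0.03 to 0.50 (edgeR adjusted p = 0.336, exact permutation p = 0.0857).

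The 3 VDAC coding sequences are related, with 69.0% of aligned bases identical between Vdac1 and Vdac2, 68.4% between Vdac2 and Vdac3 and 63.6% between Vdac1 and Vdac3. A processed copy, Vdac3-ps1, held counts equal to 12.7% of those of Vdac3, had a log2 fold change of 0.54 (edgeR adjusted p = 0.0763), and reads may fall on either record. With both records summed, the log2 fold change of Vdac3 was 0.47 (edgeR adjusted p = 0.0631). Comtd1, on the opposite strand of Vdac2, held counts equal to 9.97% of those of Vdac2, and the strand setting of the counting is not known.

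Tspo encodes the translocator protein of the outer membrane, which binds cholesterol and porphyrins and is abundant in steroid-forming tissue and in macrophages. The gene (ENSMUSG00000041736), at 83563592 to 83574203 of chromosome 15, plus strand, was at 129, 106, 103 and 152 CPM in controls and at 186, 209, 262 and 265 CPM in Nynrin CKO. The groups did not overlap, and within each group the libraries with few receptor reads were the highest. The mean rose 1.88-fold, from 122 ± 22.9 to 231 ± 39.5 CPM (SD, n = 4 each), and the log2 fold change was the largest of the 10, at 0.91 ± 0.17 (SE), with a 95% interval of 0.53 to 1.30 (edgeR adjusted p = 0.0408, exact permutation p = 0.0286). The log2 fold change was 0.81 in the receptor-rich set and 0.80 in the receptor-poor set, the latter against control 4 alone. Summed granulocyte markers and summed monocyte and macrophage markers were also highest in Nynrin CKO 3 and 4. Their part in the change of Tspo was not tested. The adjusted p of edgeR was 0.0248 without control 4 and 0.0559 to 0.223 without any other single library. Over 25 alternatives its log2 fold change was positive in 25, at 0.63 to 1.05, and passed in 11. These 11 include the contrast within the receptor-poor set, in which control 4 is the only control. Mcat, on the opposite strand, held counts equal to 3.69% of those of Tspo.

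In the inner membrane, the adenine nucleotide translocases exchange matrix ATP for cytosolic ADP and are among the candidates for the pore channel. Slc25a5 encodes ANT2, the form common in dividing cells, and Slc25a4 encodes ANT1, the main form of heart and skeletal muscle. Slc25a5, on the X chromosome from 36795651 to 36798807, was at 491, 414, 625 and 637 CPM in controls and at 772, 714, 957 and 971 CPM in Nynrin CKO. All Nynrin CKO libraries exceeded all controls, but controls 3 and 4 stood close to Nynrin CKO 2. The means were 542 ± 108 and 854 ± 129.9 CPM (SD, n = 4 each), and the log2 fold change came to 0.66 ± 0.18 (SE, edgeR adjusted p = 0.0772, exact permutation p = 0.0286). Controls 3 and 4 are the libraries with high Xist, and with the Xist class as a term the log2 fold change of this X-linked gene was 0.92 (edgeR adjusted p = 0.0724). Slc25a4, on chromosome 8 from 46206797 to 46211284, was at 141, 154, 169.8 and 203 CPM in controls and at 192, 192, 222 and 224 CPM in Nynrin CKO. Control 4 lay above Nynrin CKO 1 and 2, so the groups overlapped. Its log2 fold change came to 0.31 ± 0.13 (SE, edgeR adjusted p = 0.240, exact permutation p = 0.0857). The coding sequences of Slc25a4 and Slc25a5 share 77.4% of aligned bases.

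Slc25a3 encodes the phosphate carrier, which also brings copper into the matrix and has been proposed as a partner of cyclophilin D. The gene, on chromosome 10 from 91116574 to 91124059 on the minus strand, was at 254, 251, 262 and 289.8 CPM in controls and at 265, 269.9, 348 and 329 CPM in Nynrin CKO. Nynrin CKO 1 and 2 lay among the controls, while Nynrin CKO 3 and 4 lay above them. It had the smallest log2 fold change of the 10, 0.20 ± 0.13 (SE), with a 95% interval of -0.08 to 0.48 (edgeR adjusted p = 0.465, exact permutation p = 0.171). Within the receptor-rich set it was 0.06.

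The promoters of Slc25a5 and Slc25a3 are shown together because these abundant carriers lay at opposite ends of the inner membrane group in their difference. Both are from RefSeq (GRCm38.p6), the former at chrX:36795347-36795646 on the plus strand and the latter at chr10:91123918-91124217 on the minus strand. Capitals mark GGGCGG (SP1), CCGGAAG (ETS family), TGCGCA (from the NRF1 site), TGACG (from the CRE) and AAGATGG (YY1) on either strand.
Slc25a5 promoter: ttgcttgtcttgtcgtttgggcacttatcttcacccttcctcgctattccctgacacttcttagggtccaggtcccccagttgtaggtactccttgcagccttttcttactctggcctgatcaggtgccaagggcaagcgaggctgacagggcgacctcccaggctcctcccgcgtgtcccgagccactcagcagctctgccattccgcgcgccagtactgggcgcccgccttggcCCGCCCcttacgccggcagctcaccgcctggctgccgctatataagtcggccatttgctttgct
Slc25a3 promoter: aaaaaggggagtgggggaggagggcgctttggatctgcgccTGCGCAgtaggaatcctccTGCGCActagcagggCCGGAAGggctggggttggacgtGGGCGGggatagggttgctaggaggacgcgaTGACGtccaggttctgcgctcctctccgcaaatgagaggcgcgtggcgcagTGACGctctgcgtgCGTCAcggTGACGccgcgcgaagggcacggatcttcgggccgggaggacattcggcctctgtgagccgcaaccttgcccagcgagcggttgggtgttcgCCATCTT

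The Slc25a5 window held 1 of the 6 motifs searched, GGGCGG once, and the Slc25a3 window held 5 of the 6. The sixth motif searched was CACGTG, an E-box, which matched no pore gene window and 7.15% of all windows. RefSeq windows were at hand for 7 of the 10 genes, with 2 for Vdac1 and thus 8 in all. CCGGAAG was found in 5 of the 8, in Ppif, Vdac1, Slc25a3, Slc25a4 and C1qbp, against 8.86% of 32851 promoter windows of the same length. GGGCGG was found in 7 of the 8, against 35.7% of all windows, and TGACG in 3 of the 8, against 20.8%. TGCGCA and AAGATGG were each in 1 of the 8, that of Slc25a3, against 7.76% and 6.34% of all windows. The 8 windows held 61.0% to 68.3% G and C, and the median of all windows was 52.7%. These matches describe the letters in the windows and not binding.

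Of the partners of cyclophilin D, Trap1 encodes the HSP90 chaperone of the matrix, which binds cyclophilin D and restrains the pore. Trap1, on chromosome 16 from 4039971 to 4077827, was at 181, 185, 224 and 259 CPM in controls and at 244, 262, 296 and 294 CPM in Nynrin CKO. Only control 4 reached into the Nynrin CKO range, above Nynrin CKO 1. The log2 fold change came to 0.37 ± 0.14 (SE, edgeR adjusted p = 0.196, exact permutation p = 0.0571). C1qbp encodes a matrix protein needed for mitochondrial translation that has been reported to bind cyclophilin D. C1qbp, on chromosome 11 from 70977836 to 70983026, was at 118, 107, 129.8 and 147.3 CPM in controls and at 155, 146.9, 177 and 187 CPM in Nynrin CKO. The groups met at control 4, which exceeded Nynrin CKO 2 by a small margin. The log2 fold change came to 0.41 ± 0.13 (SE, edgeR adjusted p = 0.122, exact permutation p = 0.0571).

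Values within the library sets bear on these overlaps, since control 4 was the highest control for every gene but Ppif. Fitting a separate mean for every combination of group and set, the log2 fold changes in the receptor-rich and receptor-poor sets were 0.39 and 0.39 for Vdac2, 0.44 and 0.36 for Vdac3, and 0.54 and 0.60 for Slc25a5. They were 0.35 and 0.31 for C1qbp, 0.36 and 0.19 for Trap1, 0.31 and 0.13 for Slc25a4, 0.14 and 0.19 for Vdac1, and 0.06 and 0.23 for Slc25a3. The receptor-poor values set 2 Nynrin CKO libraries against control 4 alone and are given without a test. Control 4 also differed from Nynrin CKO 3 and 4 in Xist, at 4280 against 8.02 and 7.09 CPM. Summed granulocyte markers were at 312 CPM in control 4 and at 4163 and 4194 CPM in Nynrin CKO 3 and 4. In the receptor-rich set Ppif, Tspo, Vdac2, Vdac3 and Slc25a5 passed (edgeR adjusted p of 0.00402 to 0.0429). Over all tested genes, 2168 were called higher and 1025 lower in that set. It holds controls 1 to 3 and only Nynrin CKO 1 and 2, which resemble each other closely and may share a source. The p-values there rest in part on the spread within such close libraries. When the receptor-rich libraries were fitted alone, 3 pore genes passed.

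**Figure D2:**
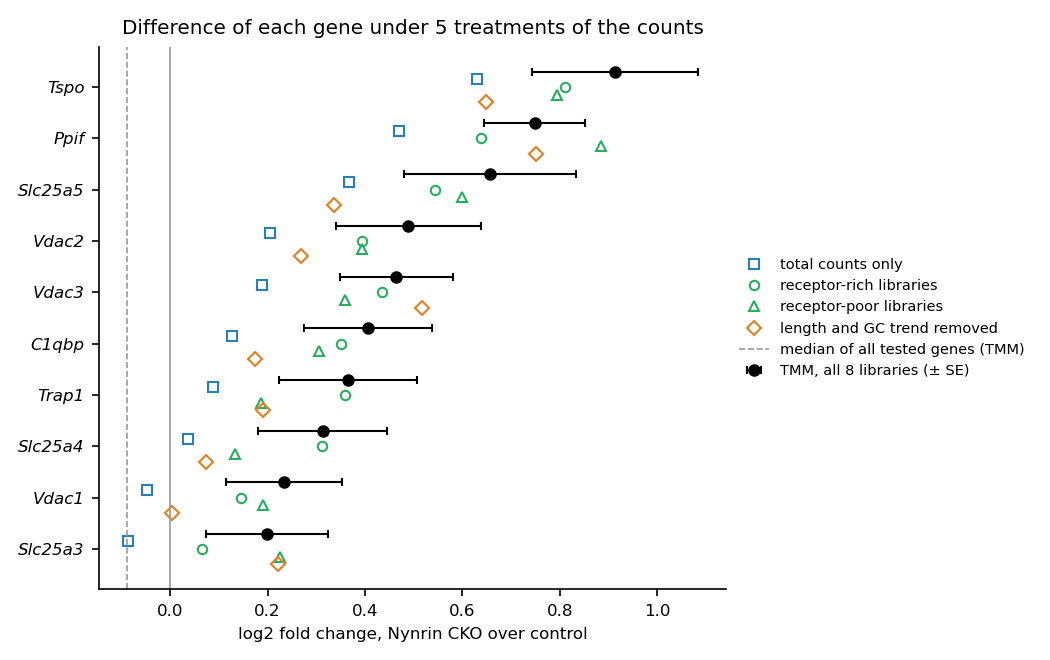
Log2 fold change of Nynrin CKO over control for the 10 genes in order of size (black circles, ± SE), with values from total counts, from each library set and with the dependence on length and GC content taken out. The dashed line is the median of all tested genes at -0.09. Tspo and Ppif are farthest from it in each treatment, and Vdac1 and Slc25a3 cross 0 with total counts.

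Ratios of counts within a library do not depend on how libraries are scaled, and 8 ratios of pore genes were compared by two-sided exact permutation, with adjustment over the 8. On raw counts, the composition of both families was unequal between groups. Such ratios still carry any dependence of counts on transcript length and GC content. Vdac1 over Vdac2 was 1.16, 1.43, 1.14 and 1.13 in controls and 1.03, 1.04, 0.951 and 1.02 in Nynrin CKO, so every Nynrin CKO library was below every control. The difference in log2 ratio was -0.26 (adjusted permutation p = 0.0457). Vdac1 over Vdac3 was likewise lower in every Nynrin CKO library, at 0.756 to 0.903 in controls and 0.661 to 0.730 in Nynrin CKO, a difference of -0.24 (adjusted permutation p = 0.0457). Vdac3 over Vdac2 overlapped, at 1.41 to 1.58 and 1.35 to 1.57, with a difference of -0.02 (adjusted permutation p = 0.743). Vdac1 thus held a lower share of the summed counts of the 3 VDAC genes in Nynrin CKO. With the dependence on length and GC content taken out, the log2 fold changes of Vdac1, Vdac2 and Vdac3 were 0.004, 0.27 and 0.52. In the main fit they were 0.23, 0.49 and 0.46.

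Among carriers, Slc25a4 over Slc25a5 was 0.288, 0.372, 0.271 and 0.319 in controls and 0.249, 0.270, 0.231 and 0.230 in Nynrin CKO. The groups were apart, though control 3 and Nynrin CKO 2 nearly met, and the difference in log2 ratio was -0.34 (adjusted permutation p = 0.0457). Slc25a3 over Slc25a5 was 0.517, 0.606, 0.419 and 0.455 in controls and 0.343, 0.378, 0.364 and 0.339 in Nynrin CKO, a difference of -0.48 (adjusted permutation p = 0.0457). With the dependence on length and GC content taken out, the log2 fold changes of Slc25a3, Slc25a4 and Slc25a5 were 0.22, 0.07 and 0.34. In the main fit they were 0.20, 0.31 and 0.66. Tspo over Vdac2 was 1.30, 1.25, 1.01 and 1.23 in controls and 1.47, 1.69, 1.58 and 1.68 in Nynrin CKO, higher in every Nynrin CKO library by 0.43 on the log2 scale (adjusted permutation p = 0.0457). The ratios of Ppif did not pass: that to Vdac2 differed by 0.26 (adjusted permutation p = 0.114) and that to Slc25a5 by 0.08 (adjusted permutation p = 0.653). Each of the 5 adjusted p-values that passed lay at 0.0571 to 0.0914 when control 2 or any one Nynrin CKO library was left out, with the direction kept in each case. All 5 had an unadjusted permutation p of 0.0286, the smallest possible. Their adjusted p therefore depends on how many of the 8 ratios reach that value together. The ratios share genes, so they are not separate tests.

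**Figure D3:**
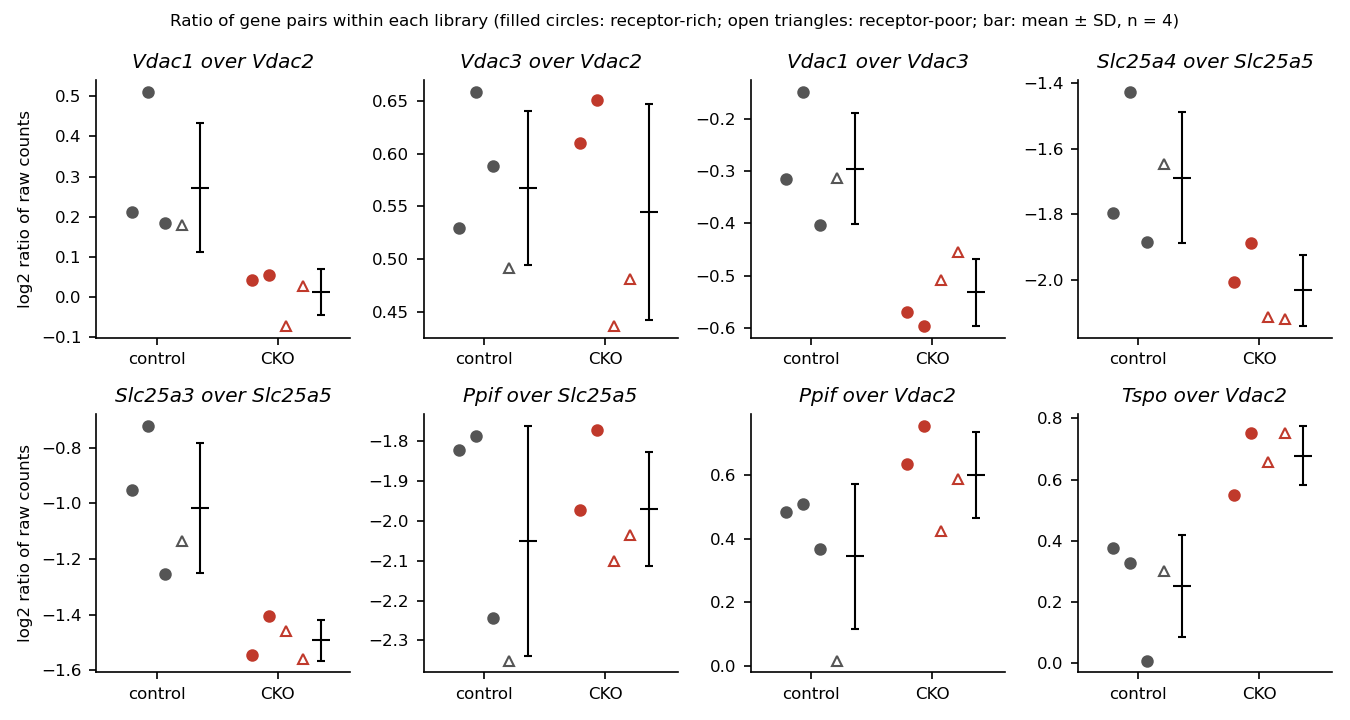
Log2 ratio of raw counts of gene pairs in every library by group, with the mean ± SD (n = 4); circles are receptor-rich libraries and triangles receptor-poor ones. Groups are apart for Vdac1 over Vdac2, Vdac1 over Vdac3, Slc25a4 over Slc25a5, Slc25a3 over Slc25a5 and Tspo over Vdac2, and they overlap for the other 3 ratios.

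Levels of different genes were compared per length, as TPM (counts per base of transcript, scaled to a fixed sum per library). With the longest annotated transcript as the length, Slc25a5 led in controls at 1058 ± 199 TPM, followed by Tspo at 353 ± 49.8 TPM (SD, n = 4 each). These were the 2 genes whose control ranges overlapped with no other gene of the 10. Trap1 (222 ± 33.9 TPM) and Slc25a4 (210.2 ± 29.5 TPM) did not differ beyond their spread, nor did Slc25a3, C1qbp and Vdac1 at 147 to 159 TPM. Vdac2 was at 121 TPM, and Vdac3 and Ppif came last at 87.6 and 86.0 TPM, again with overlapping ranges. The length used moves this order: for Ppif, Vdac2, Vdac3, Slc25a3 and C1qbp the longest annotated transcript is longer than the longest protein-coding one, 3637 against 1549 bases for Ppif. With the protein-coding length, Slc25a3 was second in controls at 507 ± 19.5 TPM, overlapping with Tspo at 450 ± 55.0 TPM, and Vdac1 and Vdac2 came last at 188 and 162 TPM.

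TPM carries no TMM factor, so it also gives the groups on another scale. By the longest transcript, all 4 Nynrin CKO libraries were above all 4 controls for Ppif (79.0 to 91.3 TPM in controls, 97.9 to 122 TPM in Nynrin CKO) and Tspo (309 to 418 and 474 to 532 TPM), which was so for 1.26% of 27514 tested genes with a length. Slc25a3 lay below every control on this scale (149 to 165 TPM in controls, 129.9 to 142 TPM in Nynrin CKO), as did 13% of tested genes. By the protein-coding length Ppif and Tspo were again above every control (1.44% of 17874 genes), and Slc25a3 and Vdac1 below (19.2%). Of the 10 genes, Ppif and Tspo alone kept their groups apart on the TMM scale and with both TPM lengths.

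**Figure D4:**
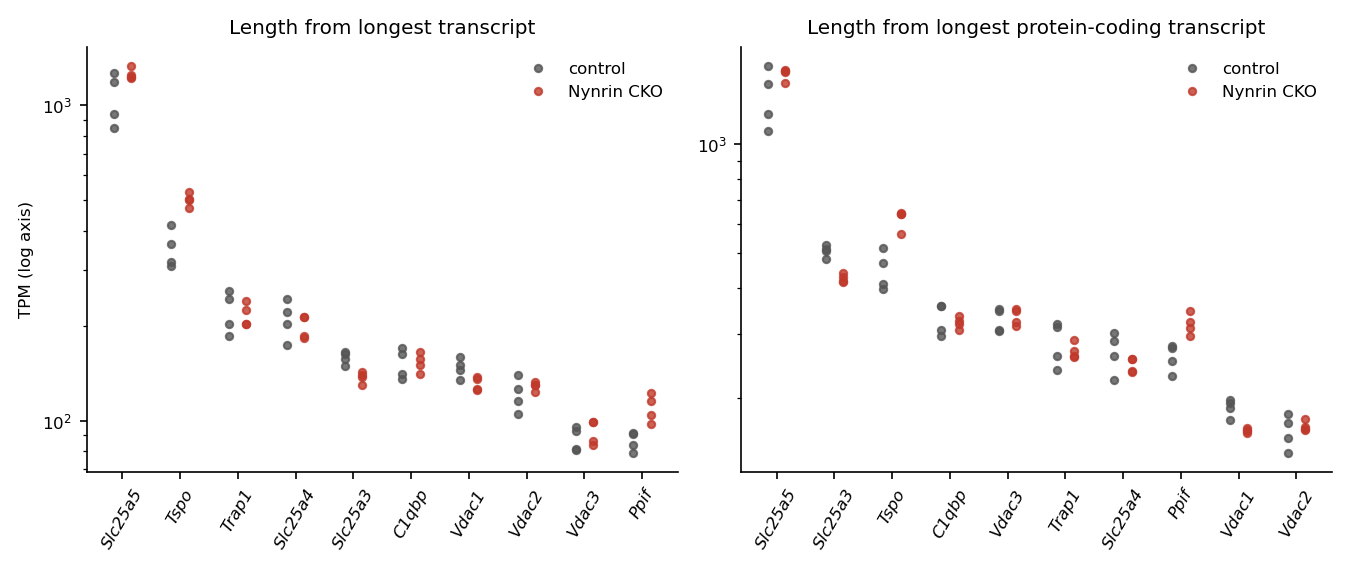
TPM of the 10 genes (log axis) in the 4 control and 4 Nynrin CKO libraries, with length taken from the longest transcript (left) or the longest protein-coding transcript (right), in order of the control mean. Slc25a5 leads in both panels, and Ppif and Tspo are the genes whose Nynrin CKO points all lie above their controls.

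Log2 fold changes in these data fall with transcript length, so the pore genes were set beside genes of like length. Expressed genes (a mean of at least 1 CPM) were divided into 5 equal groups by their longest transcript, and the median log2 fold change went from 0.38 in the shortest group, up to 1665 bases, to -0.17 in the longest. Tspo (837 bases, 0.91) and Slc25a5 (1240 bases, 0.66) fell in the shortest group. Ppif, at 3637 bases, fell in the third group, with a median of 0.08, and Vdac3 and Slc25a3 in the fourth, with a median of -0.08. The others fell in the second, with a median of 0.23, at which Vdac1 also stood. By the protein-coding length Ppif moved to the shortest group with Tspo, Slc25a5, Vdac3, Slc25a3 and C1qbp, where the median was 0.42 and 12% of genes were called higher. With the dependence on length and GC content taken out of each library, the log2 fold change was 0.75 for Ppif (edgeR adjusted p = 0.0795) and 0.65 for Tspo (edgeR adjusted p = 0.116). It was then 0.52 for Vdac3, 0.34 for Slc25a5, 0.27 for Vdac2 and 0.00 to 0.22 for the other 5.

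**Figure D5:**
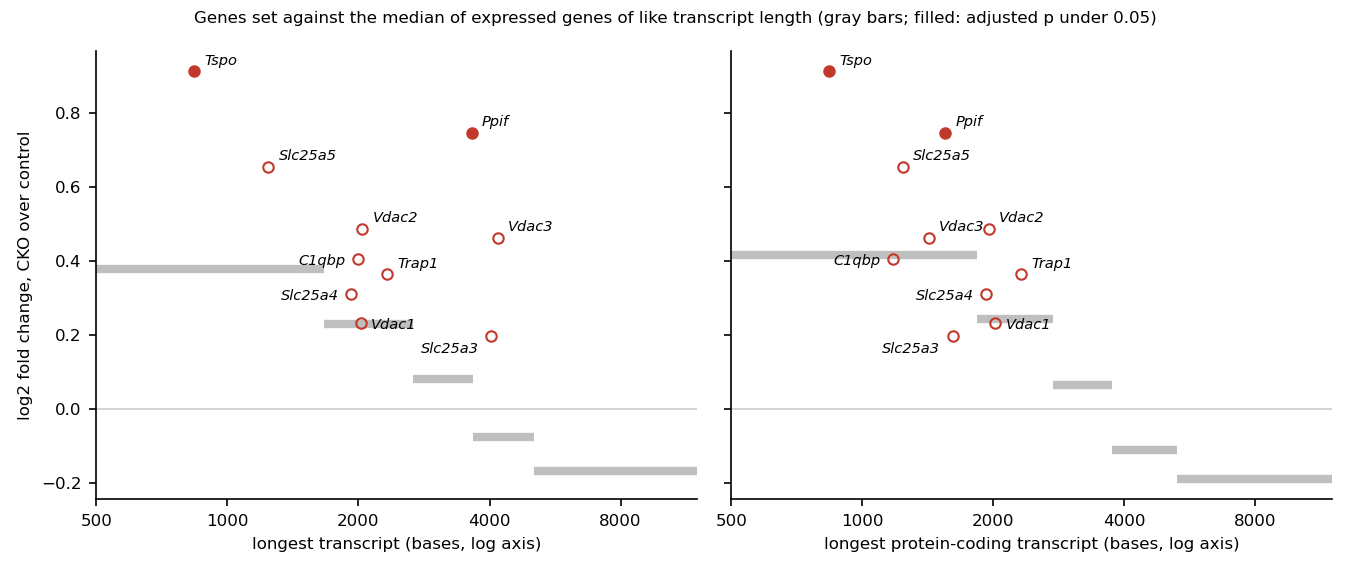
Log2 fold change of the 10 genes (red, filled where the adjusted p is under 0.05) against transcript length on a log axis, beside the median of each of 5 equal groups of expressed genes by length (gray bars), for the longest transcript (left) and the longest protein-coding transcript (right). Tspo, Ppif, Slc25a5, Vdac2, Vdac3, Slc25a4 and Trap1 stand above the bar of their group in both panels, and Ppif, Vdac3, Slc25a3 and C1qbp change group between them.

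Other genes tied to the pore were counted from lists of known parts and regulators. Over all tested genes 2.22% were called higher, 44.5% had a positive log2 fold change and the median was -0.09. Among expressed genes with the shortest protein-coding transcripts, 12% were called higher and the median was 0.42. The lengths of the listed genes were not taken into account in the counts and medians here and in the next paragraph. Of 18 ATP synthase subunits, whose complex is a candidate for the channel itself, 18 had a higher mean in Nynrin CKO, and the median log2 fold change was 0.52. The test passed 2, Atpif1, the inhibitor of the enzyme (log2 fold change 0.68, edgeR adjusted p = 0.0416), and Atp5o, the subunit of the stalk that confers oligomycin sensitivity and binds cyclophilin D (0.62, edgeR adjusted p = 0.0436). Of 17 cyclophilins 3 rose, Ppif and the spliceosomal cyclophilins Ppie (0.66) and Cwc27 (0.56), with a median of 0.42. Cwc27 overlaps Srek1ip1, which held 44.6% as many counts. Of 19 pore regulators 3 rose: Sirt3, the matrix deacetylase that acts on cyclophilin D (0.76, edgeR adjusted p = 0.0382), the death effector Bax (0.56, edgeR adjusted p = 0.0457) and the kinase ERK1, Mapk3 (0.66, edgeR adjusted p = 0.0478). The median of that list was 0.19. Sirt3 overlaps Ric8a and Psmd13, which held 52.6% and 61.4% as many counts. In these 3 lists edgeR called 0 genes lower, whereas limma-voom called 1 cyclophilin lower and DESeq2 0. At an unadjusted p under 0.05 the lower one was Ranbp2, a nucleoporin with a cyclophilin domain (-0.33).

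Of 12 partners of VDAC and of contacts with the endoplasmic reticulum, edgeR called 2 higher and 0 lower, with a list median of 0.08. The 2 were the mitochondrial nucleotide exchange factor Grpel1 (0.72) and the actin-severing protein gelsolin, Gsn (0.87). At an unadjusted p under 0.05, 3 were higher and 1 lower, Mfn2 (-0.41). DESeq2 called 2 higher and 1 lower, and limma-voom called 3 higher and 0 lower. Of 10 ligands and partners of TSPO, the cholesterol carrier Star rose (0.54, edgeR adjusted p = 0.0489), from 11.4 ± 0.745 to 16.6 ± 0.610 CPM (SD, n = 4 each), and the median was 0.45. Of 12 chaperones of the matrix and of the HSP90 family Grpel1 rose, with a median of 0.32. Grpel1 is also in the list of VDAC partners above, so its rise is counted in both lists. Of 9 tested carriers for ADP, ATP or phosphate besides those above, edgeR called 0, with a median of -0.24, whereas 2 were higher and 1 lower at an unadjusted p under 0.05, DESeq2 called 1 higher and 1 lower, and limma-voom called 1 higher and 0 lower. The 2 with the smallest p were Slc25a17, the peroxisomal carrier (0.61, edgeR adjusted p = 0.0699), and Slc25a42, a carrier of coenzyme A (-0.48, edgeR adjusted p = 0.0940).

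The genes whose profile over the 8 libraries was most like that of Ppif were found by the root mean square difference of centred log2(CPM + 1) values among 9271 genes with a mean of at least 10 CPM. These were Gon7 (0.0846), Grpel1 (0.0953) and Asf1b (0.103). Gon7, a subunit of a tRNA-modifying complex, overlaps Gm20604, which held 254% as many counts. Grpel1 had 52.6 to 68.6 CPM in the control group against 94.9 to 109.98 CPM with Nynrin deleted, and Asf1b, a histone chaperone, was at 49.9 to 59.1 and 73.4 to 102 CPM. Most like Tspo were Tmem50a (0.0678), Themis2 (0.0789) and Rnaset2a (0.0794). Tmem50a, a membrane protein gene, had 115 to 159 CPM in the control group against 206 to 273 CPM with Nynrin deleted, close to the levels of Tspo, and Themis2, a signalling gene of B cells and macrophages, was at 20.6 to 28.3 and 41.4 to 58.4 CPM. Rnaset2a has a near-identical copy, Rnaset2b, so its counts are uncertain. The measure uses the group difference itself, so the likeness is a description of these 8 libraries.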

How the data were processed

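RNA libraries of sorted mouse HSCs, 4 Nynrin CKO and 4 control, were compared, with groups and replicate numbers taken from the labels. Per the labels' protocols, RNA was extracted with Trizol from about 3000 sorted cells per sample and 5 ng of cDNA entered each library. The series text also gives a smaller cell number, and the sort markers, the aligner, the counting program and the strand setting were not given in the sources used here. Raw read counts per gene, as whole numbers without normalization, were deposited by the authors, as their values and column names show. The build is mm10 per the submitters' processing notes, and 94.2% of the 55141 gene identifiers shared with GENCODE M21 have the same start and end there.

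The 10 genes, the other lists and the tests were chosen with earlier results of these data known. In R 4.3.3, edgeR 4.0.16 (filterByExpr, TMM factors, robust quasi-likelihood F-test, Benjamini-Hochberg over 27573 genes, threshold 0.05) was fitted to all 8 libraries with no covariate, and checked on simulated counts. The standard error is that of the log2 fold change, and CPM are TMM-scaled. Exact permutation tests were two-sided over 70 assignments, on log2(CPM + 1) for genes and log2 ratios of counts for pairs. Members were not adjusted over their list. TPM were computed from the counts with GENCODE M21 transcript lengths. Promoter windows came from RefSeq, and coding sequences were aligned with biopython 1.88. Receptor-poor and receptor-rich sets were divided at 300 CPM of receptor genes and Xist classes at 100 CPM. At these depths every pore gene had at least 3540 counts in each library, so counting error is small beside the spread between libraries.

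Besides the 10 genes and Nynrin, the text names members of each other pore list that passed, at most 4 by smallest p, or the 2 with the smallest p where none passed. It also names the 3 genes most like Ppif and the 3 most like Tspo, among genes with a mean of at least 10 CPM and no clone or predicted-gene symbol. Ranbp2 and Mfn2 are named as the genes of their lists that were lower at an unadjusted p under 0.05. Genes of the marker lists that are named were chosen after their values were seen. Alternatives were RLE and upper-quartile factors, total counts, other filters, DESeq2 1.42.0, limma-voom with quality weights in limma 3.58.1, a newer quasi-likelihood form, a replicate block, each library left out, terms or subsets for receptor set and Xist class, Nynrin CKO libraries summed in pairs, removal of mitochondrial, ribosomal and haemoglobin genes, and removal of a length and GC trend. The sum of Vdac3 with Vdac3-ps1, the protein-coding length and a fit of the receptor-rich libraries alone were added after seeing the data.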

Additional observations from a re-analysis of the deposited data

Results flagged for a closer look

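The log2 ratio of Vdac1 over Vdac2 in control 2 was 0.511, against 0.18 to 0.21 in the other 3 controls, and its gap to them made up more of the group's range than Dixon's critical value allows for 4 libraries. Of 38 sets of 4 values checked in this way it was the only one. Chance alone flags about 1 in 20 sets, so 1 of 38 is not above that rate. The sets share genes and libraries. Without control 2 the difference between groups in this ratio was -0.18 on the log2 scale (adjusted exact permutation p = 0.0571).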

How the results depend on the processing

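Beside the 2 pore genes called higher, the number called was 0 with RLE factors (13 genes higher and 22 lower over all genes), 0 with no filter beyond 1 count (33 and 16), 0 with the Xist class as a term (4 and 6), 0 with mitochondrial, ribosomal and haemoglobin genes removed (25 and 79), 0 with the length and GC trend removed (2 and 1) and 0 with the Nynrin CKO libraries summed in pairs (0 and 0). It was 1 with total counts, Tspo (59 and 318), and 4 with DESeq2 (1566 and 892), 6 with limma-voom (1629 and 496), 5 with library set as a term (1221 and 408), 5 within the receptor-rich set (2168 and 1025) and 2 within the receptor-poor set (1847 and 1649), where 1 control stands against 2 libraries. The receptor-rich libraries fitted alone gave 3 (1311 and 857), upper-quartile factors 2 (225 and 251), a filter at 1 CPM 2 (707 and 475) and the newer quasi-likelihood form 2 (822 and 290). Leaving out 1 library gave 0 to 3 pore genes, 1 to 1129 genes higher and 0 to 243 lower, the most without control 4, and 0 pore genes without any other. No alternative called a pore gene lower. Pore genes whose groups lay apart, all of them higher in Nynrin CKO, numbered 5 in the main fit and 4 under RLE scaling. They numbered 3 under upper-quartile scaling and 3 under total counts. The share of all tested genes apart in this direction was 9.52% on the TMM scale. It is not given for the other factors, so their counts of pore genes cannot be set against a background. The split of calls over all genes thus moved with scaling.

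With the replicate block, edgeR called 0 genes in either direction and 0 pore genes. The adjusted p was 0.0690 for Ppif and 0.0693 for Tspo. Deviations of same-numbered libraries from their group means correlated at 0.134, 0.124, -0.195 and 0.331. Controls 1, 2 and 4 correlated best with the Nynrin CKO library of the same number, and control 3 with Nynrin CKO 1. These values do not settle whether the numbers pair libraries, and the main fit did not pair them. With the Nynrin CKO libraries summed in pairs, Ppif and Tspo each had an adjusted p of 0.443.

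Leaving out 1 library, the log2 ratio difference ran from -0.29 to -0.18 for Vdac1 over Vdac2, -0.27 to -0.19 for Vdac1 over Vdac3, -0.41 to -0.26 for Slc25a4 over Slc25a5, -0.56 to -0.38 for Slc25a3 over Slc25a5, 0.34 to 0.47 for Tspo over Vdac2 and 0.15 to 0.32 for Ppif over Vdac2. It reversed for Vdac3 over Vdac2 without control 2 (0.0082) and without Nynrin CKO 3 (0.0138), within a range of -0.058 to 0.0138, and for Ppif over Slc25a5 without control 4 (-0.0195), within -0.02 to 0.17. Vdac1 (-0.048) and Slc25a3 (-0.087) reversed with total counts. The cause of these changes was not tested. Every pore gene had 3540 or more counts in each library, and 4 against 4 libraries cannot give an exact p under 0.0286.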
